A study of Homo sapiens with 4 samples.

Results

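HCT116 is a human colorectal cancer line. In the library of HCT116 cells given DAC and SB939, the cells richest in transposable element (TE) RNA were compared with the cells poorest in it. The TE share of a cell is its TE counts divided by all its counts, genes and TE together. Of 4327 cells in this library and 15289 in the series, 3279 had at least 5000 counts and were ranked by TE share and divided by rank into 4 groups of nearly equal size. The group with the highest TE share (819 cells, called TE-high) was set against the group with the lowest (819 cells, called TE-low), and the 2 groups between them (820 and 821 cells) were kept to see whether values ran in order. The cells were thus selected on their TE share, which is given as a description only.

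The treated cells received DAC, an inhibitor of DNA methyltransferases, for 72 h and SB939, an inhibitor of histone deacetylases, for 18 h, each at 500 nM in medium changed every 24 h. Cells were between passages 5 and 10. Reference libraries were HCT116 with the solvent DMSO (3639 cells with at least 5000 counts) and H1299, a non-small cell lung cancer line, with the same DAC and SB939 treatment (3690 cells). Each was 1 library of 5′ single-cell RNA sequencing, so no difference has a replicate check, no test was made, and the bracketed 95% intervals cover counting error only. Cells of 1 culture are not replicates of a treatment.

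As background, TE are repeated sequences left by mobile DNA, and most are kept silent by DNA methylation and by modified histones. LTR12 elements are the promoters of an old endogenous retrovirus (HERV9), and they are known to drive transcription of themselves and of neighbouring genes when histone deacetylases are inhibited. Alu and L1 elements are short and long interspersed repeats, and THE1 and MST are long terminal repeats of another retroviral group. Many Alu copies lie inside genes, so that Alu counts can also come from gene transcripts.

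The TE share was 2.11% (2.10 to 2.12) over TE-low cells, 3.74% and 5.67% over the middle groups and 10.7% (10.7 to 10.8) over TE-high cells. Single cells ran from 0.0718% to 33.6%, with a median of 4.60%. The highest TE-low cell was at 2.99755% and the next cell at 2.99951%, while the lowest TE-high cell was at 7.072% and the next below it at 7.071%, so both limits cut a continuous distribution. HCT116 cells with DMSO stood at 0.319% as listed. Some TE families, AluY and AluSz among them, are listed at 0 in the DMSO library, so its shares rest on fewer families. Of the treated cells, 52 (1.59%) were at or below 0.939%, the 99th percentile of the DMSO cells, as listed there, and all 52 belonged to the TE-low group. No DMSO cell reached the TE-high group.

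**Figure D1:**
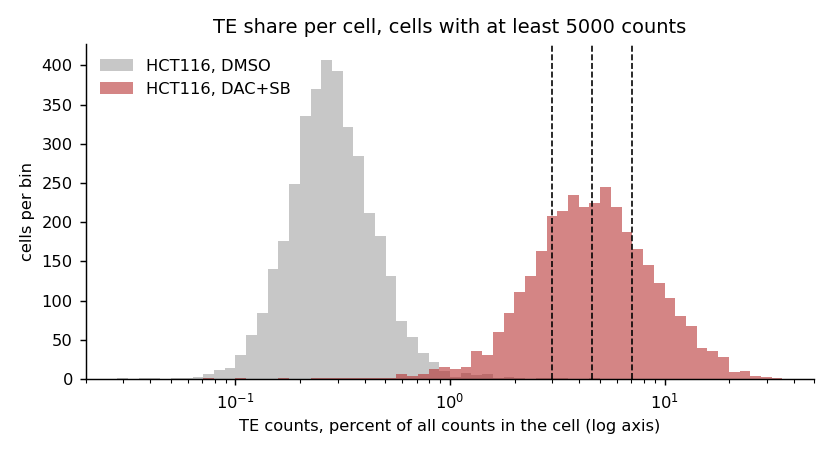
Number of cells per bin against TE share of the cell (percent of all counts, log axis) for HCT116 cells with at least 5000 counts, DMSO in grey and DAC+SB in red; dashed lines are the limits of the TE-low and TE-high groups and the median cell. The treated cells form 1 broad distribution around 4.60%, with no gap at either limit.

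The groups also differed in general properties of the cells. Median depth was 10560, 10091.5, 10084 and 9363 counts from the TE-low to the TE-high group, the order in which 4 values are given throughout. The mitochondrial share of gene counts was 16.8%, 17.8%, 18.4% and 20.8%, and cells above 25% mitochondrial counts numbered 96, 115, 135 and 242. Across the 3279 cells, TE share had a Spearman correlation of 0.27 with mitochondrial share and of -0.11 with depth. These values come from the same library and cells, and TE share and depth share a denominator. Ribosomal protein genes held 22.4%, 22.4%, 22.5% and 21.6% of gene counts. After each cell was thinned to 5000 counts, the median cell had 1754 genes with a count in TE-low and 1567 in TE-high cells. These 5000 counts were drawn over genes and TE together, with a median TE share of 2.24% and 9.82%. TE-high cells thus kept fewer gene counts, so part of this difference follows from the ranking. The part that mitochondrial share and depth have in the gene differences below was not tested beyond the alternatives given with them. The HCT116 epithelial markers summed to 1128, 1086, 1109 and 1103 CPM (counts per 1000000 gene counts), and of the 8 markers of 17 that could be compared 0 passed 1.5-fold. The H1299 mesenchymal markers summed to 656, 604, 603 and 584 CPM, with THY1 higher (1.09) and VIM (-0.64) and ZEB1 (-0.68) lower of 8 compared (6.58% of all genes tested were higher and 10.1% lower), and the immune markers to between 11.2 and 16.2 CPM. With H1299 DMSO, treated H1299 and HCT116 DMSO the ranked cells shared 18, 26 and 17 barcodes. No doublet caller was run.

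TE make-up is described here without a test, since the cells were ranked on these same counts, most of them LTR12. Ranking by all TE therefore favours cells rich in LTR12, and with cells ranked by the other TE the LTR12 difference was -26.3 percentage points in place of 9.45. LTR12 families held 51.0% (50.8 to 51.2) of TE counts in TE-low cells, 54.8% and 57.6% in the middle groups and 60.5% (60.4 to 60.6) in TE-high cells. Most of the gain in share lay in LTR12C, which went from 39.1% to 50.6% of TE counts. The family named LTR12 went from 2.90% to 3.83%, while LTR12D went from 7.22% to 3.97%. Alu families went from 19.9% to 27.0%. THE1 families, in contrast, went from 14.8% through 11.9% and 9.14% to 5.78% of TE counts, MST from 2.20% to 0.71% and L1 from 2.95% to 1.39%.

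Levels, per total counts of the group, were higher in TE-high cells for each of these sets, as the ranking by total TE share makes likely. LTR12 was 6.04-fold higher, Alu 6.94-fold, L1 2.39-fold, THE1 1.99-fold and MST 1.65-fold. Of 146 single families with at least 100 counts in the group where they were higher, 118 were more than 2-fold higher in level. Only 4 were lower by any amount, each by less than 2-fold. LTR7, the promoter of the HERVH retrovirus and a family known from embryonic stem cells, was 1 of these 4. It had 906 counts in TE-low and 725 in TE-high cells, a log2 ratio of level of -0.19 (-0.33 to -0.05). The others were LTR16A (334 and 173 counts, -0.82), MER5A1 (295 and 248, -0.12) and LTR33 (372 and 325, -0.06). Intervals of level are not given for these others, and the values of MER5A1 and LTR33 are close to 0. The TE composition rests on families listed for this library and is therefore compared between its own cells only.

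**Figure D2:**
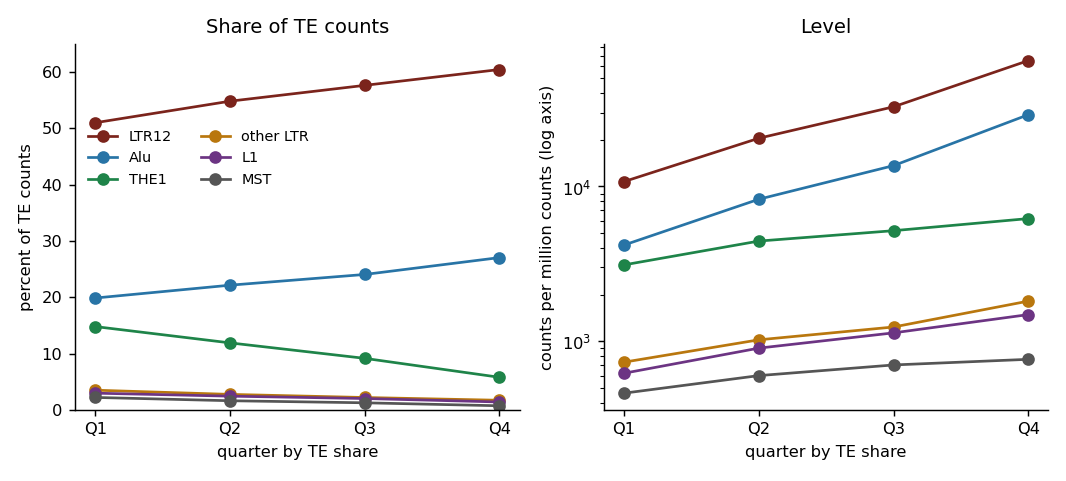
Left, percent of TE counts held by 6 sets of TE families in the 4 groups of treated HCT116 cells; right, their level in counts per 1000000 counts of genes and TE (log axis). The LTR12 and Alu sets gain share from Q1 (TE-low) to Q4 (TE-high), THE1 loses share from 14.8% to 5.78%, and all 6 levels go up.

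Single loci followed different courses. The LTR12C locus numbered 1700968 in the deposited table had 5542 counts in TE-low and 23627 in TE-high cells, a log2 ratio of level of 2.22, below that of the LTR12 set as a whole (2.59). LTR12C loci 5849997 and 1657859 went from 480 to 5312 and from 459 to 5098 counts, log2 ratios of 3.60 and 3.61. LTR12D locus 1701101 held 10322 counts in TE-low cells (5.38% of TE counts) and 13653 (1.53%) in TE-high cells, a log2 ratio of 0.54. The difference in its share was larger than that of all LTR12D together. When TE-high cells were thinned to the 191880 TE counts of the TE-low group, 37329 loci had a count against 33192 in TE-low cells, and the 10 leading loci held 9.68% against 15.1%. At 100 TE counts per cell, the median TE-high cell showed 86 different loci and the median TE-low cell 78, with 70 TE-low cells left out for having fewer than 100.

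Gene expression was compared over 7473 gene names with at least 100 counts in the group where they were higher. At 1.5-fold, 492 genes (6.58%) were higher and 753 (10.1%) lower in TE-high cells, and the median log2 ratio was -0.15. The genes that were higher differed by more: 245 of them and 60 of the lower genes passed 2-fold, and 61 and 0 passed 4-fold. Of calls at 1.5-fold, 39.5% were higher. The balance turned at 2-fold, and 54.9% were higher when CPM were computed without mitochondrial and ribosomal protein genes, with 602 higher and 495 lower genes. The 4 groups were in rank order for 76.6% of the higher, 72.2% of the lower and 35.1% of all genes tested. A large difference between the outer groups itself makes rank order more likely. Of the higher genes 35.2% were under 1 CPM in the DMSO library, against 3.16% of all genes tested. Names of clones, antisense or other noncoding transcripts made up 23.6% of the higher genes and 3.68% of all tested. Such genes can reach the count limit through TE-high cells alone, so these shares are a description.

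To see whether these genes were those that the treatment itself had induced, induction was measured in other cells, the middle groups against the DMSO library. There, 726 of 12051 genes (6.02%) were at least 4-fold higher with treatment and 447 (3.71%) at least 4-fold lower. Of the 438 induced genes that could be compared between TE-high and TE-low cells, 261 (59.6%) were higher and 4 lower in TE-high cells, with a median log2 ratio of 0.77. Of 85 repressed genes, 31 (36.5%) were lower and 1 was higher, with a median of -0.46. The remaining 6944 genes had a median of -0.17, with 3.23% higher and 10.3% lower. A gene can reach the count limit only through the group where it is high. With genes chosen by at least 200 counts in the middle groups instead, 205 of 386 induced genes were higher and 3 lower (median 0.65), against 5.38% and 9.03% of all genes, and 0 of 62 repressed genes were higher and 22 lower. The exceptions among induced genes, lower in TE-high cells, were VIM, MEIOB, PSMB9 and C2orf74, and the repressed gene that was higher was HIST1H2AB. A gene not listed in the DMSO library reads as 0 there, which can enlarge the induced group.

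**Figure D3:**
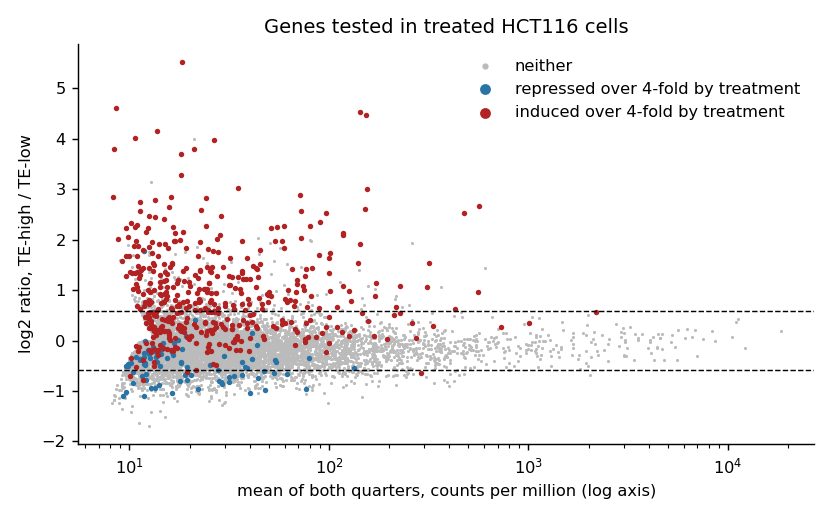
Log2 ratio of TE-high over TE-low cells against mean level (CPM, log axis) for the 7473 genes tested; red, genes induced at least 4-fold over DMSO in the middle groups, blue, genes repressed at least 4-fold, grey, neither; dashed lines mark 1.5-fold. Red points lie mostly above and blue points mostly below 0, with medians of 0.77 and -0.46.

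Several of the genes with the highest ratios reached 100 counts in TE-high cells but not in TE-low cells, and IL16 and AC095067.1 in both. IL16 (chromosome 15, 81159575 to 81314058, GRCh38), which encodes a chemoattractant cytokine of lymphocytes, had 119, 463, 752 and 2185 counts. That is 13.4, 54.0, 90.5 and 295 CPM, against 0.112 CPM with DMSO, and a log2 ratio of 4.46 (4.20 to 4.74). The 4 values ran in order without overlapping intervals. After thinning to 5000 counts, 5.37% of TE-low and 42.0% of TE-high cells had an IL16 count, or 10.1% and 51.5% without thinning, at median depths of 10560 and 9363. No cells known to lack IL16 were in this library, so a contribution of free RNA was not measured.

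MED9 (chromosome 17, 17476986 to 17493226), a subunit of the Mediator complex that links transcription factors to RNA polymerase, had 380, 749, 1162 and 1935 counts, a log2 ratio of 2.61 (2.45 to 2.78). Its level was 42.7 CPM in TE-low cells, 261 CPM in TE-high cells and 13.7 CPM with DMSO, so TE-low cells already stood above DMSO. IRGM and GBP2, both GTPases of innate immunity, were at 2.83 (53 to 314 counts) and 2.79 (30 to 173 counts). C1S, a protease of the complement cascade, was at 2.59, and FBP2, the muscle form of fructose bisphosphatase, at 2.76. CLEC4C, a surface lectin of plasmacytoid dendritic cells, went from 18 to 107 counts (2.84), SPANXN5, a sperm protein gene, from 11 to 100 (3.45), and FRG2C from 33 to 134 (2.29). The noncoding transcript SCHLAP1 was at 2.47 and C5orf27 at 2.27 (245 to 983 counts). Each of these 10 genes was in rank order over the groups.

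Several leaders were clone-named transcripts of unknown function. AC095067.1 had 106, 354, 691 and 2030 counts, a log2 ratio of 4.53 (4.24 to 4.82). RP11-432M8.17 went from 7 to 267 counts (5.52, 4.46 to 6.85) and RP11-472K22.1 from 13 to 193 (4.16, 3.35 to 5.09). RP11-138I1.4 went from 6 to 122 counts (4.61, 3.45 to 6.09), but had 57 and 41 counts, below the limit, when cells were ranked by LTR12 alone (-0.36, -0.97 to 0.25). A further 5, RP11-81A1.2, CTD-2544M6.2, CTD-2562J17.2, RP11-803F22.1 and RP11-434C1.1, lay between 3.79 and 4.03, and AC102948.2 was at 3.71. Whether these transcripts overlap TE was not examined.

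**Figure D4:**
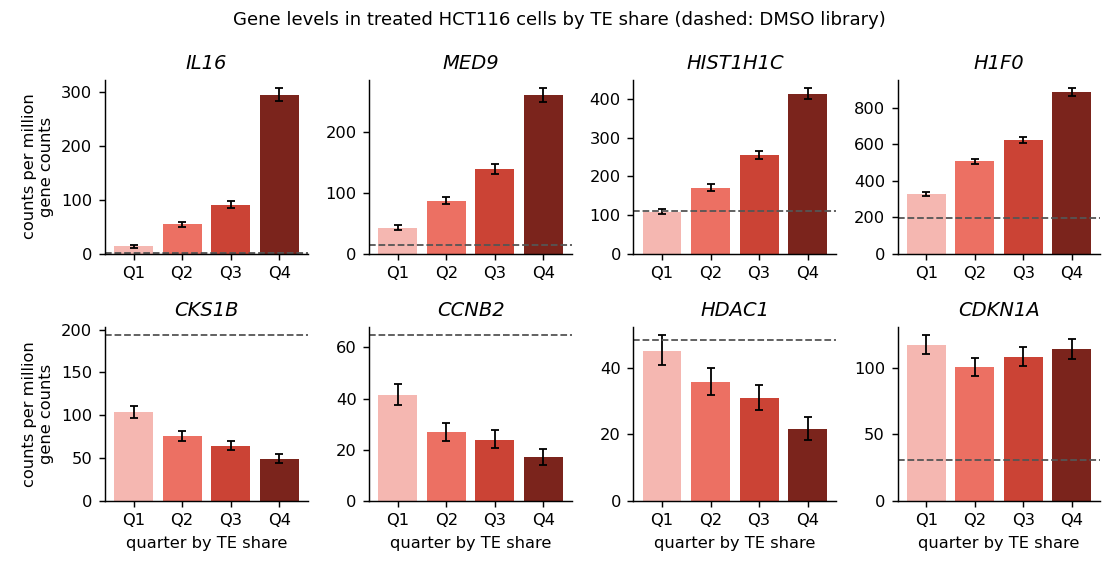
Level of 8 genes (CPM, linear axes starting at 0) in the 4 groups of treated HCT116 cells, Q1 TE-low to Q4 TE-high, with exact Poisson 95% intervals; dashed lines give the level in the DMSO library. IL16, MED9, HIST1H1C and H1F0 are in rising order, CKS1B, CCNB2 and HDAC1 in falling order, and CDKN1A stays between 101 and 117.

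Many histone genes were among the higher genes. Replication-dependent histone genes lie in clusters, are transcribed in S phase and give mRNA that normally ends in a stem-loop in place of a poly(A) tail, whereas H1F0 and other replacement histone genes are polyadenylated. Of 33 genes with HIST names that could be compared, 32 were higher in TE-high cells and 0 lower, against 6.58% higher and 10.1% lower over all genes tested. Their median log2 ratio was 1.55 against -0.15 over all genes. This set was assembled after its values were seen. With the limit set on the middle groups, 27 of 29 were higher (median 1.47), against 5.38% of all genes. In the histone list used for the other comparisons, 17 of 24 were higher and 1, H3F3A (-0.68), was lower, with a median of 1.00. HIST1H1C (chromosome 6, 26055787 to 26056428), a linker histone, had 967, 1460, 2122 and 3062 counts, a log2 ratio of 1.93 (1.82 to 2.03). Its TE-low level, 109 CPM, was that of the DMSO library (110 CPM), and its TE-high level was 413 CPM. HIST1H2AE had 78, 157, 263 and 359 counts (2.47, 2.11 to 2.84), HIST3H2A 293, 436, 629 and 959 (1.98) and HIST2H2BE 51, 80, 141 and 144 (1.76). H1F0, known to rise with histone deacetylase inhibitors, had 2905, 4342, 5167 and 6580 counts (1.45, 1.38 to 1.51). HIST1H4C, a core histone H4 gene, was the 1 HIST gene that did not pass, with 5638 counts in TE-low and 4893 in TE-high cells (0.06). Summed over all HIST names the level was 1458, 1797, 2267 and 2906 CPM, and 3504 CPM with DMSO. S phase genes did not follow: 0 of 34 passed in either direction, their median was -0.17, and their sum was 1677, 1672, 1648 and 1651 CPM.

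Genes of G2 and mitosis were lower. Of 54 in the list, all could be compared, 0 were higher and 30 lower, against 10.1% lower over all genes tested. Their median log2 ratio was -0.62, against -0.15 over all genes (-0.55 without cells above 25% mitochondrial counts), and their sum was 6287, 5482, 5151 and 4855 CPM. CCNB2 (chromosome 15, 59105078 to 59125045), a mitotic cyclin, had 369, 230, 199 and 126 counts, a log2 ratio of -1.28 (-1.59 to -0.99). HMMR, a spindle protein gene, had 171, 99, 96 and 44 counts (-1.69, -2.21 to -1.21), its middle groups being level with each other. CKS1B, a subunit of cyclin-dependent kinases, had 921, 651, 536 and 365 counts (-1.07), and the checkpoint kinase gene TTK had 238, 139, 132 and 93 (-1.09). The proliferation marker MKI67 did not pass at -0.42. With DMSO, CCNB2 stood at 64.8 CPM and CKS1B at 193 CPM, against 41.4 and 103 CPM in TE-low cells. In the cells below the median G2/M share, with groups remade, the list's median was 0.14 and TTK was at 0.13, but that choice of cells used these same genes. The histone list's median there was 0.75.

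For the higher HIST genes and the lower G2/M genes, the 250 bases before RefSeq start sites (GRCh38.p14) were searched on both strands for CCAAT, bound by NF-Y, for TTTGAA, the core of the cell cycle genes homology region of mitotic genes, for TATAAA and for ATTTGCAT, the octamer bound by OCT1. List members that did not pass 1.5-fold were not counted separately. Windows were found for 28 of the 32 higher HIST genes and 25 of the 30 lower G2/M genes. A gene with several start sites has several windows and counts where any of them holds the motif. CCAAT was present in 26 of 28 and 20 of 25 genes, against 37.0% of all 27305 genes with a window and 44.3% of the 6015 genes tested that had one. At least 2 CCAAT in 1 window were found in 23 of 28 and 15 of 25, against 11.5% and 17.4%. TTTGAA was present in 9 of 28 and 14 of 25 (16.1% of all and 11.4% of tested genes), TATAAA in 21 of 28 and 1 of 25 (13.0% and 7.48%), and the octamer in 12 of 28 and 0 of 25 (2.03% and 1.56%). Over all genes called, CCAAT was in 55.4% of the 289 higher and 46.3% of the 643 lower genes with a window. For TTTGAA these shares were 11.4% and 13.8%, for TATAAA 19.7% and 5.60%, and for the octamer 7.27% and 1.56%. HIST genes are paralogs, and 3 pairs have overlapping windows (HIST2H2AC with HIST2H2BE among them), so their windows are not independent. A few windows of each group follow, on the coding strand and 5′ to 3′, with every match of the 4 motifs in capitals, to show CCAAT in both groups. The mitotic ones were picked for a TTTGAA near the start, which 11 of the 25 genes lack altogether and which lies further away in others (111 bases before the start in HJURP, 145 in NCAPD2).
HIST1H2AE (chr6:26216671-26216920, plus strand): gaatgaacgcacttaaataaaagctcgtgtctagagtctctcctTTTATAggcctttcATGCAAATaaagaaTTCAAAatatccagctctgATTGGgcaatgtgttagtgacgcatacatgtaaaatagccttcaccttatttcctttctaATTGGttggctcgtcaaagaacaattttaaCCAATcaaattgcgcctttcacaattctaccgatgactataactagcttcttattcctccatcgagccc
HIST2H2BE (chr1:149886683-149886932, minus strand): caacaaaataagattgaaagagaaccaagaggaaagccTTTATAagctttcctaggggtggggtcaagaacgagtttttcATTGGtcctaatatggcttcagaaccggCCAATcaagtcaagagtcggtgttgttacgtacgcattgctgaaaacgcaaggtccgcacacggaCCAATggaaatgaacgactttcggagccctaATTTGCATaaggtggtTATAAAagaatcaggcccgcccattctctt
HIST1H1C (chr6:26056471-26056720, minus strand): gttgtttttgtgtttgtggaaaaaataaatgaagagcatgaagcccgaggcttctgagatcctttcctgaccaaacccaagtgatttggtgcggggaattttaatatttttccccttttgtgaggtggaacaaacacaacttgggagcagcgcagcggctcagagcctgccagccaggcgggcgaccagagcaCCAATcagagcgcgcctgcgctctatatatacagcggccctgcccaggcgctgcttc
CCNB2 (chr15:59104896-59105145, plus strand): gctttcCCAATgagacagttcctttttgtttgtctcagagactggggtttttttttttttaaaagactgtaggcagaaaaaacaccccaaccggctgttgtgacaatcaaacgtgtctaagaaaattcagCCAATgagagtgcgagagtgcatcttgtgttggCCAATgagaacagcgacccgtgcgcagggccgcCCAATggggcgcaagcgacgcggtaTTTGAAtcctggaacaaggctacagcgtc
CKS1B (chr1:154974431-154974680, plus strand): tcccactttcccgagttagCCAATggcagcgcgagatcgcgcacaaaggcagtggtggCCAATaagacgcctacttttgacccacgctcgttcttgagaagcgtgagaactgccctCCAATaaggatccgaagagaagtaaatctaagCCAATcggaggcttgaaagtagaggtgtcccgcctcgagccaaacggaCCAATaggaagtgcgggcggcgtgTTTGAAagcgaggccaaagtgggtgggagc
HMMR (chr5:163460382-163460631, plus strand): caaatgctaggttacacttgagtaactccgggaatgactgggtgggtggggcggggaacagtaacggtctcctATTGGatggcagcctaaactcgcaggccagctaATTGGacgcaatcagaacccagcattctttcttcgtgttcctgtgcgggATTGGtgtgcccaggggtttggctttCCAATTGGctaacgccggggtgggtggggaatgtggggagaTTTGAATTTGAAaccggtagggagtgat
In CCNB2, CKS1B and HMMR a match to TTTGAA begins 29, 30 and 28 bases before the start, downstream of the last CCAAT at 54, 54 and 66. HIST2H2BE has the octamer at 46 and TATAAA at 30 bases before the start, while HIST1H1C has CCAAT alone. A match describes these letters only, not binding of a factor.

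The histone and mitotic groups were also compared with LTR12 and the other TE taken separately. Across the 3279 cells, the LTR12 share and the share of all other TE had a Spearman correlation of 0.30, so that they rank cells differently. Ranked by LTR12 alone, HIST-named genes had a median log2 ratio of 2.02 between the highest and lowest groups, with 34 of 35 higher. Ranked by the other TE their median was 0.19, with 10 of 31 higher and 1 lower. Over all genes the median was -0.11 in either ranking. At 1.5-fold the LTR12 ranking called 5.24% of genes higher and 5.27% lower, and the other ranking 6.03% and 8.51%. HIST1H1C was at 2.31 and 0.44, HIST1H2BJ at 2.27 and 0.19, HIST1H2BK at 1.78 and -0.06, and HIST1H4C at 0.44 and -0.60. G2/M genes had the larger difference by the other TE, with a median of -0.87 and 40 of 54 lower. By LTR12 their median was -0.23, with 5 of 52 lower, near the share of all genes. S phase genes stood at 0.06 by LTR12 and -0.48 by the other TE. HMMR was at -0.79 and -1.85 and MKI67 at -0.09 and -0.99. In treated H1299 cells the same rankings gave 1.20 and 0.38 for HIST-named genes and -0.96 and -1.48 for G2/M genes. There 48 of 54 G2/M genes were lower by LTR12 and 51 of 54 by the other TE. Of all genes 5.1% were higher and 7.15% lower by LTR12, and 5.7% and 5% by the other TE. Both rankings use the same cells, and their difference was not tested.

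**Figure D5:**
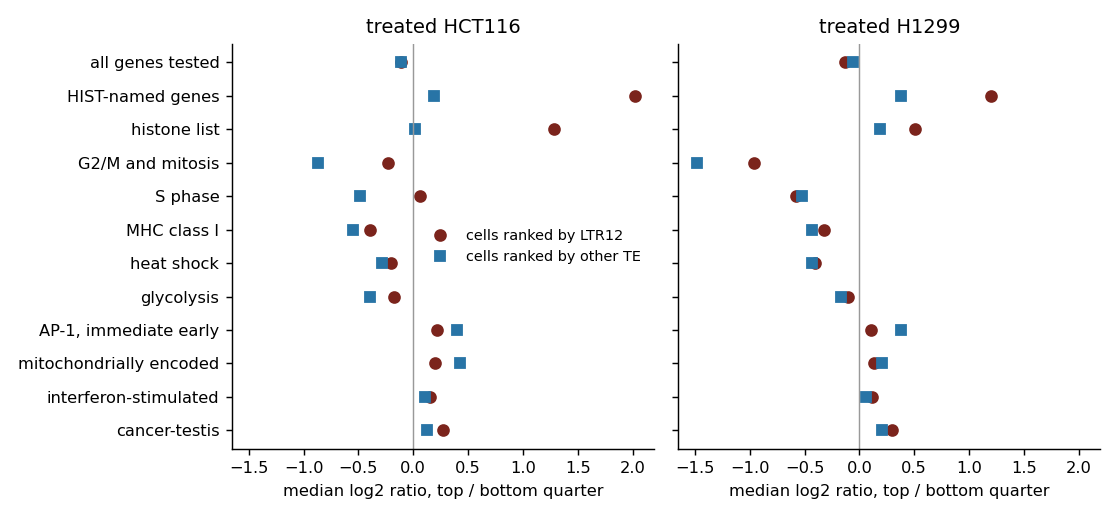
Median log2 ratio of 11 gene lists and of all genes tested between the highest and lowest of 4 groups of cells, with cells ranked by LTR12 share (red circles) or by the share of other TE (blue squares), in treated HCT116 (left) and treated H1299 (right). HIST-named genes are furthest right under the LTR12 ranking (2.02 and 1.20) and G2/M genes furthest left under the other ranking (-0.87 and -1.48).

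Among the leading genes the 2 rankings also gave different values, with no test of the difference. IL16 was at 4.67 by LTR12 and 1.90 by the other TE, MED9 at 3.11 and 0.77, C5orf27 at 2.74 and 0.56, C1S at 3.08 and 0.96, IRGM at 3.18 and 0.98, and CYP51A1, an enzyme of cholesterol synthesis, at 1.64 and 0.39. SPANXN5 (2.37, from 17 and 81 counts, below the limit, and 3.31), FRG2C (1.67 and 2.45), the clone-named CTD-2562J17.2 (1.66 and 4.06) and RP11-138I1.4 (-0.36, also below the limit, and 4.17) had the larger value by the other TE, with overlapping intervals for SPANXN5 and FRG2C. RP11-432M8.17 (5.16 and 7.22, a transcript with few counts in TE-low cells) and AC102948.2 (2.45 and 3.12) were past 1.5-fold in both. MT-ND6, a subunit of respiratory complex I encoded on the opposite mitochondrial strand from the other protein genes, was at 0.07 by LTR12 and 1.23 by the other TE. TE loci carry no coordinates here, so whether a TE lies beside any of these genes was not examined.

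Stress and signalling genes were mixed, and their counts stand beside 6.58% higher and 10.1% lower over all genes tested. Of 20 AP-1 and immediate early genes, 5 were higher and 0 lower, with a median of 0.43. JUNB, an AP-1 subunit, had 1001, 1154, 1350 and 1690 counts (1.02, 0.91 to 1.14), and JUN had 1356, 1420, 1648 and 2079 (0.88). KLF4 was at 0.68, FOSB at 0.78 and DUSP1 at 0.63. Of 10 mitochondrially encoded protein genes only MT-ND6 passed, with 2115, 2718, 2995 and 3661 counts (1.06), and the list's median was 0.40. Without cells above 25% mitochondrial counts these 2 medians were 0.30 and 0.28. Of 21 genes known to respond to histone deacetylase inhibitors, 5 were higher (H1F0, HIST1H1C, HIST1H2BK, KLF4 and the stress gene GADD45B at 1.17), 3 of them histone genes. Among 23 p53 targets 5 were higher and the median was 0.01. CDKN1A, the cell cycle inhibitor p21, had 1046, 864, 900 and 846 counts, a log2 ratio of -0.04, although its level of 114 CPM in TE-high cells compared with 30.6 CPM in DMSO. Of 21 chaperone genes, HSPA1A was higher (0.72), HSPE1 (-0.71) and HSPA8 (-0.66) were lower, and the median was -0.30. Of 18 glycolysis genes 4 were lower and 0 higher (median -0.27), among them PGK1 with 1694, 1244, 1099 and 888 counts (-0.67).

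In antigen presentation and nucleic acid sensing the genes past 1.5-fold were all lower, where 10.1% of all genes tested were lower and the median was -0.15. Of 11 MHC class I pathway genes 0 were higher and 5 lower, with a median of -0.53. Among them were CANX (1398, 1074, 896 and 632 counts, -0.88) and CALR (4898, 3814, 2989 and 2553, -0.67), chaperones of class I folding, and the immunoproteasome gene PSMB9 (-0.62). CALR stood at 550 CPM in TE-low, 345 CPM in TE-high and 377 CPM in DMSO cells. Of 7 sensing genes 0 were higher and 3 lower: EIF2AK2, the kinase activated by double-stranded RNA (119 to 55 counts, -0.85), SAMHD1 (-0.73) and MAVS, the adaptor of RNA sensing (-0.60). Only EIF2AK2 of these 7 was lower with cells ranked by LTR12 alone (-0.71) or by the other TE (-0.60). Of the 11 MHC class I genes 1 was lower by LTR12 and 4 were lower by the other TE. In these rankings 5.27% and 8.51% of all genes were lower. In treated H1299 cells ranked by total TE share, 1 of 16 MHC class I genes was lower (median -0.37), against 7.80% of all genes. Of 13 interferon-stimulated genes 4 were higher and 1 lower. ISG15 had 1708, 2034, 1916 and 2314 counts (0.70, 0.61 to 0.80) and IFIT1 37, 35, 55 and 100 (1.70, 1.14 to 2.29), whereas IFITM2 was at -0.59. With 30 interferon-stimulated genes of the 43 below the count limit, this list is thinly measured.

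Some germline genes were higher in TE-high cells, where 6.58% of all genes tested were higher and 10.1% lower. Of 55 cancer-testis genes listed 17 could be compared, and of these 8 were higher and 1 lower, with a median of 0.26. With the limit set on the middle groups 5 of 16 were higher, against 5.38% of all genes, and the median was 0.14. SPANXC went from 42 to 112 counts (1.68), PAGE2 from 95 to 181 (1.20) and PAGE1 from 181 to 324 (1.11), while MAGEA12 was at -0.73. Of 35 meiotic genes listed 9 could be compared, and of these 4 were higher and 1 lower. TEX14, needed for the bridges between germ cells, had 230, 401, 442 and 461 counts (1.27), and PIWIL2, a Piwi protein of TE silencing in the germ line, 283, 377, 384 and 423 (0.85). MEIOB was the exception, with 132, 102, 103 and 64 counts (-0.78). Of 30 genes listed for neuroendocrine peptides and granins 9 could be compared. Of these 3 were higher and 1 was lower, with a median of 0.24. The limit on the middle groups was not applied to the meiotic and neuroendocrine lists. A gene of these lists can reach the count limit through 1 group alone. CHGA went from 39 to 128 counts (1.98), CCK from 1789 to 3098 (1.06) and POMC from 407 to 573 (0.76), while ENO2, a neuronal enolase, went from 290 to 144 (-0.74). Of 8 metallothionein genes 3 were higher, among them MT1G (3013, 4263, 3989 and 3842 counts, 0.62), whose difference lay between TE-low cells and the rest. The summed level of all metallothioneins went the other way, with 9938, 10578, 9499 and 8666 CPM.

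Among the drug targets and TE silencing factors 1 gene of each list was lower and 0 were higher, which is near or below the 10.1% of all genes tested that were lower. HDAC1 (chromosome 1, 32292086 to 32333635), a histone deacetylase, had 403, 307, 257 and 160 counts, a log2 ratio of -1.07 (-1.34 to -0.80). It was the 1 of 10 deacetylase genes past 1.5-fold, and HDAC2 was at -0.22. DNMT1, the maintenance methyltransferase that DAC traps, had 1217, 1238, 1123 and 1012 counts and a log2 ratio of 0.00 (-0.12 to 0.12), and UHRF1, its recruiting partner, was at -0.30. Of 9 DNA methylation genes 0 were higher and 1 was lower, MBD2 (-0.73), a reader of methylated DNA. Of 23 TE silencing genes 0 were higher and 1, the heterochromatin protein gene CBX5 (-0.73), was lower. TRIM28, the corepressor recruited by zinc finger proteins, was at -0.33, and SETDB1 had under 100 counts in both compared groups (73 and 84). Of 128 ZNF-named genes, a set assembled after values were seen, 28 were higher and 1 lower, with a median of 0.27, against 6.58% higher over all genes tested.

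Other genes at the low end belonged to no single list. FAM134A, of a family of autophagy receptors in the endoplasmic reticulum, had 150, 102, 82 and 40 counts (-1.64, -2.18 to -1.13). PRR11, a cell cycle gene, was at -1.42, the mitochondrial dehydrogenase gene DHTKD1 at -1.41, CHMP3, a subunit of the ESCRT-III membrane scission complex, at -1.39 and PIR at -1.36. PTMS, which encodes parathymosin, had 1233, 954, 797 and 434 counts (-1.24, -1.40 to -1.08), and SDHC, a subunit of succinate dehydrogenase, 373, 264, 225 and 132 (-1.23). LPGAT1 (-1.24), SSH1 (-1.24), PRKACA (-1.21) and PTP4A2 (-1.21) complete, with CCNB2, the 12 lowest of those in rank order. DKK1, a secreted inhibitor of WNT signalling, had 4772, 4525, 3838 and 2286 counts (-0.80). For other lists the counts stand beside 6.58% higher and 10.1% lower over all genes. Of 8 transcription factors known to bind LTR12 sequences, 0 passed 1.5-fold (median -0.06). Few calls were made among ribosomal protein genes (2 higher and 1 lower of 85, median -0.11) and nuclear genes of oxidative phosphorylation (0 and 2 of 40, -0.15). Of 23 ATF4 stress response genes 3 were higher and 1 lower (0.06), and of 13 BCL2 family genes 2 were higher and 0 lower (-0.13).

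The same rule was applied to treated H1299 cells and to HCT116 cells with DMSO. In treated H1299, 597 of 10343 genes (5.77%) were higher and 807 (7.80%) lower. Over 7150 genes measured in both treated lines, the log2 ratios correlated at 0.61 (Pearson) and 0.40 (Spearman), across genes, which are not independent replicates. Higher in both were 168 genes, 45.9% of the 366 in HCT116 and 66.1% of the 254 in H1299. Lower in both were 169, 22.8% of 740 and 27.6% of 613. Over all 7150 genes, 3.55% were higher and 8.57% lower in H1299. IL16 (6.12 in H1299), MED9 (2.90), GBP2 (3.97), IRGM (3.23), HIST1H1C (2.16) and CCNB2 (-0.97) were past 1.5-fold the same way. In H1299 the G2/M list had 50 of 54 genes lower (median -1.21), 19 of 39 S phase genes were lower, and of 40 HIST genes 23 were higher and 3 lower (median 0.87). DNMT1 was at -0.70 there. JUNB (0.36), JUN (0.08), CANX (-0.36) and PTMS (-0.06) did not pass in H1299. Whether the lines differ was not tested.

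Among HCT116 cells with DMSO, 174 of 9544 genes (1.82%) were higher and 8 (0.0838%) lower in the group richest in TE. This ranking rests on 199629 TE counts over 3639 cells, against 1915821 over 3279 treated cells, and on fewer listed families. It is thus open to more counting error per cell. How far this lowers the number of calls, in the gene lists as well, was not tested. Of 6980 genes measured in both libraries, 1.12% were higher and 0.043% lower with DMSO. Higher in both DMSO and treated cells were 32 genes, 14.4% of the 222 in treated cells and 41.0% of the 78 with DMSO. Lower in both were 0, but with only 3 such genes with DMSO, against 741 in treated cells, this overlap could hardly be otherwise. The G2/M median was -0.14 with 0 of 54 past the limit. Of 30 HIST genes measured there, 15 were higher and 1 lower (median 0.57).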

How the data were processed

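RNA was measured by 5′ single-cell sequencing in 4 libraries, 1 per combination of line (H1299, HCT116) and treatment (DMSO, DAC+SB). The authors deposited 2 tables of counts, whole numbers per gene or TE feature and cell, not normalized. STAR, CASAVA and GRCh38 (hg38) are named in the submitters' processing notes; of the counting tool, annotation, cell filter and use of molecular identifiers nothing is stated in the labels. Cell names end with the library name, which set the group. Cells had at least 5000 counts over both tables, and the counts of the 3279 treated HCT116 cells summed to 35124820. Counts were summed over the cells of each group and divided by summed gene counts. Ratios carry exact conditional binomial 95% intervals, levels Poisson and shares Clopper-Pearson ones. They cover counting error only. A gene was compared where it had at least 100 counts in the higher group and called past 1.5-fold; a 0 was set to 3 counts. Names joining several genes (16.6% of gene counts in TE-low, 19.2% in TE-high cells) were left out of the main comparison.

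The genes named were the 12 highest and 12 lowest calls in rank order, the same without clone-type names, up to 4 per list with the largest ratio, and 16 fixed genes. Others were chosen after their values were seen. The groups, members and lists were chosen with earlier results of these data known. Promoter windows were taken from RefSeq tables (GRCh38.p14), matched by symbol or synonym. Gene positions come from GENCODE v29. Alternatives changed the fold, count limit, scaling (TMM of edgeR 4.0.16), cells and ranking. Ratios and intervals were also computed on simulated Poisson counts of the summed groups. That simulation held no variation between cells, so it cannot show how the intervals behave with such variation. Python 3.11.15, numpy 2.4.6, scipy 1.17.1 and pandas 2.3.3 were used. Not every gene that the rule names is reported here.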

Additional observations from a re-analysis of the deposited data

Results flagged for a closer look

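Of 7150 genes measured in both treated lines, 9 passed 1.5-fold in opposite directions in HCT116 and H1299, each line split by its own TE share. The difference between the lines was not tested, with 1 library per line. Higher in TE-high HCT116 and lower in TE-high H1299 cells were HIST2H2AC, a replication-dependent histone H2A gene (log2 ratio 1.26 in HCT116, 88 to 175 counts, and -0.84 in H1299, 108 to 56 counts), SNAI1, a repressor of epithelial genes (0.76, 270 to 381 counts, and -0.98), HSPA1A, the inducible HSP70 chaperone (0.72, 267 to 367 counts, and -0.88, 925 to 466 counts), TMEM74 (0.68 and -0.98), CRBN, the substrate receptor of a ubiquitin ligase (0.66 and -0.64), and ATAD5 (0.60 and -0.93). Lower in HCT116 and higher in H1299 were CADM4, a cell adhesion gene (-1.13, 116 to 44 counts, and 0.71), PPM1N (-0.80 and 0.60) and OCIAD2 (-0.70, 907 to 464 counts, and 0.65, 649 to 943 counts). In HCT116 the value depended on the ranking for HSPA1A, at 1.11 by LTR12 and 0.05 (-0.18 to 0.29) by the other TE, and for HIST2H2AC, at 1.82 and 0.06 (-0.32 to 0.44). In H1299 HIST2H2AC had 97 and 72 counts by LTR12, below the limit (-0.34, -0.80 to 0.12). By the other TE it had 103 and 57 counts there (-0.78, -1.27 to -0.30). HSPA1A in H1299 was at -0.70 by LTR12 and -1.03 by the other TE. By comparison, 337 genes were called in the same direction in both lines.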

How the results depend on the processing

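No paired analysis was possible because the compared groups are cells of 1 library, with no replicate libraries to pair. The medians of induced and repressed genes kept their sign in every alternative run, but the balance of calls turned in some. Higher genes outnumbered lower ones at 2-fold and without mitochondrial and ribosomal protein genes in the denominator (602 and 495). With at least 1 count the calls cannot show the balance, because a missing count was set to 3. A gene with 1 count only in TE-low cells then reads as higher, and with 1 count only in TE-high cells as lower. Against 492 higher and 753 lower genes, the counts were 245 and 60 at 2-fold, 8390 and 5909 with at least 1 count, 285 higher with cells thinned to 5000 counts, 244 higher in cells of 5000 to 10000 counts, 309 and 480 in cells of at least 10000 counts, 298 higher between the top and bottom 10% of cells, and 274 and 418 in the cells below the median G2/M share. Lower genes were 495 without mitochondrial and ribosomal protein genes in the denominator and 392 with cells ranked by LTR12. Fewer cells or counts leave fewer genes to compare (for example 3405 of 7473 in cells of 5000 to 10000 counts); the cause of the other moves was not tested.

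The induced median of 0.77 became 0.59 with at least 1 count, 1.00 in cells of 5000 to 10000 counts, 0.67 by LTR12, 0.60 by other TE, 0.65 with genes chosen by their counts in the middle groups and 1.37 between the 10% extremes. The repressed median of -0.46 became -0.27 with at least 1 count, -0.64 after thinning, -0.76 in the shallower cells and -0.37 by other TE. It was -0.92 between the 10% extremes and -0.68 with the lower G2/M share. With at least 1 count, both medians can be affected by the 3 counts set for a missing count. The mitochondrial difference of 3.99 percentage points became 4.52 as a mean over cells, 6.32 with TE share over counts without mitochondrial genes, 4.51 after thinning, 4.84 and 2.89 in shallower and deeper cells, 4.19 without the deepest 5%, 2.62 without cells above 25% mitochondrial counts, 2.73 by LTR12, 3.32 by other TE, 6.37 between the 10% extremes, 3.67 without DMSO-like cells and 3.57 with the lower G2/M share. The LTR12 difference of 9.45 points became 11.2 as a mean over cells, 9.13 without mitochondrial genes, 9.15 after thinning, 10.2 in deeper cells, 10.1 without high mitochondrial cells, 13.3 between the 10% extremes and 9.01 without DMSO-like cells. It was -26.3 when cells were ranked by the other TE, which by construction favours cells rich in them.

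Among lists and named genes past 1.5-fold, the sign changed for RP11-138I1.4 by LTR12 (-0.36, with 57 and 41 counts and an interval that includes 0), for the G2/M median (0.14), MEIOB (0.23) and TTK (0.13) with the lower G2/M share, and for HIST1H2BK (-0.06) by other TE. Further HIST genes called higher in the main comparison were also below 0 by other TE, among them HIST1H2AI (-0.47), HIST1H2AJ (-0.36) and HIST1H1A (-0.35). In that ranking 10 of 31 HIST genes were higher and 1 lower, against 6.03% and 8.51% of all genes. MT1H, with 0.94 in the main comparison, and PLAU, with 28 and 15 counts, each changed sign in 3 alternatives. Of 110 named genes past 1.5-fold in the main comparison, 30 were no longer so by LTR12 and 34 by other TE. With the lower G2/M share 19 were lost, and in deeper and shallower cells 16 and 13. Without high mitochondrial cells 13 were lost, and 8 without mitochondrial and ribosomal protein genes in the denominator. DMSO-like cells are the 52 at or below the 99th percentile of DMSO cells. The choices by DMSO-like cells, G2/M share and middle-group counts were added after seeing the data.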
